A study of Mus musculus with 8 samples.

Results

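The genes of the skeletal muscle sarcomere and of muscle metabolism were followed in brown adipose tissue (BAT), the heat-producing fat of mice, of wild-type (WT) and db/db mice. The 35 genes were picked by symbol and make up 35 of the 31053 genes in the count table. They were sorted by textbook fibre type into 14 fast isoforms, 7 slow isoforms and 14 genes used by both fibre types. Of the 9264 genes that passed the count filter, 35 were these genes, so that each of them was tested. BAT was profiled by bulk RNA-seq in 8 libraries, 4 from WT mice of strain C57BL6/J and 4 from db/db mice (DB_DB in the labels), in which a mutation inactivates Lepr, the receptor for leptin, and which become obese. All mice were 8 weeks old, and per the study's methods they were males and were fasted before harvest. The db/db line was the purchased B6.BKS(D)-Leprdb/J strain, whose mutation is in every cell, and the study names more than 1 supplier for its WT mice, so whether the genotypes shared a source is not settled. Lepr was listed at 0 counts in all 8 libraries, so the count table gave no check of the genotype.

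Muscle fibres shorten when thick filaments of myosin pull on thin filaments of actin, and calcium released from the sarcoplasmic reticulum starts this by binding troponin C, which releases the block by troponin I and lets tropomyosin shift across the actin surface so that myosin can bind. Most of these proteins have a fast and a slow form, encoded by separate genes, and fibres are typed by which myosin heavy chain they make, from slow type I (Myh7) through IIa (Myh2) and IIx (Myh1) to the fastest IIb (Myh4). BAT develops from progenitors related to those of skeletal muscle, and the main depot of mice lies between the shoulder blades on the back muscles. Several slow forms (Myl2, Myl3, Tnnc1) are also the forms of the heart ventricle.

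The promoters of 4 of these genes are shown first because the genes moved together between libraries of the same genotype, as described further on. Each run is the 250 bases before a start site in RefSeq, build GRCm38.p6, read 5′ to 3′ on the gene's strand. Capitals mark the motifs searched on both strands, which were TATAAA, the E-box CAGCTG, the MEF2 site and the CArG box bound by serum response factor. Acta1, skeletal alpha-actin, stands for the genes of both fibre types, Myh4 and Mylpf for the fast isoforms, and Tnnc1, the gene with the highest fold change, for the slow isoforms. The windows are chr8:123894776-123895025 on the minus strand for Acta1, chr11:67237562-67237811 on the plus strand for Myh4, chr7:127211358-127211607 on the plus strand for Mylpf and chr14:31208062-31208311 on the plus strand for Tnnc1.
Acta1: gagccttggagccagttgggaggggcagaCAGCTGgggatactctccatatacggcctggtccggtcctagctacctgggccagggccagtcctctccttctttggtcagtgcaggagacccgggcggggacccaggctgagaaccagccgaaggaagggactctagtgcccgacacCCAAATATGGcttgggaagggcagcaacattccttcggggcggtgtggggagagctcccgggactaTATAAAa
Myh4: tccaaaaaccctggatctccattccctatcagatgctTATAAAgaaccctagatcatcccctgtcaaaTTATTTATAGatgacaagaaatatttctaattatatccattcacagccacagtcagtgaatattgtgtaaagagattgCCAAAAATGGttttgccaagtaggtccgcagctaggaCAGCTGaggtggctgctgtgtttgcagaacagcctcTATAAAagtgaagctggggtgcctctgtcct
Mylpf: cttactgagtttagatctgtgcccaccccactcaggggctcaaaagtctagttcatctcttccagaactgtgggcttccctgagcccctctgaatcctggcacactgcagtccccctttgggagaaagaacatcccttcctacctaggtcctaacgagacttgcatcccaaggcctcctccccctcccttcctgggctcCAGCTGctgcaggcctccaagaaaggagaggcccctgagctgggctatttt
Tnnc1: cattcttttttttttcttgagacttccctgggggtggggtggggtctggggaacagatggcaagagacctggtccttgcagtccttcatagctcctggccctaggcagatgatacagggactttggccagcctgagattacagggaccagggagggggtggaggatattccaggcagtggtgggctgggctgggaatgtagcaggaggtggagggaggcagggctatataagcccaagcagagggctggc
In Acta1 the E-box lay 221 to 216 bases, the CArG box 73 to 64 bases and TATAAA 7 to 2 bases before the start. In Myh4 the CArG box lay 104 to 95 bases and the E-box 67 to 62 bases before the start, and of its 3 TATAAA matches the middle one lay inside the MEF2 site, 182 to 173 bases before the start. The Myh4 window overlaps an annotated exon. In Mylpf only the E-box matched, 51 to 46 bases before the start, and in Tnnc1 none of the 4 motifs matched. RefSeq gave a window for 28 of the 35 genes, with 34 windows in all because some genes have several starts. The E-box stood in 44.1% of these windows against 13% of the windows of all genes, and the MEF2 site in 11.8% against 2.92%. Some windows of a gene overlap, so the single E-box of Mb and that of Tnni1 were each counted more than once. The CArG box stood in 8.82% against 1.47%, and TATAAA in 17.6% against 12.4%. Such a match describes the letters of the window and is no measure of binding.

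The WT libraries held 2374079 to 2615009 counts and the db/db libraries 2382722 to 3240074. Levels are given as CPM, the usual count scaled to a common library size, with library sizes adjusted by the trimmed mean of M values (TMM). Sums over a list of marker genes are CPM of the unadjusted library totals instead. The floor of detection, 3 counts, stood for 0.926 to 1.26 CPM of the library totals. The labels call the cell type Stromal Vascular Fraction, a fraction from which mature adipocytes are removed, but adipocyte genes were high in every library. The sum of Adipoq, Plin1, Fabp4, Lipe and Cfd was 11387 to 20642 CPM in WT libraries and 13456 to 18546 CPM in db/db libraries, and the values below are therefore described as those of BAT. The share of counts from mitochondrially encoded genes was 31.9 to 34.0% in WT and 36.8 to 37.6% in db/db replicates 2, 3 and 4, and 30.7% in db/db replicate 1, which also held the highest level of the muscle genes. Its part in the results was not tested. Exons of 15 of the 35 genes overlap a gene on the opposite strand, among them Tnnc2, Myh1, Myh2, Myh7, Myl2, Myl3, Ckm, Ttn, Neb and Ryr1. Whether counting used the strand is not given in the sources used here, so their values are uncertain to that extent.

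To compare the muscle genes between the genotypes, each gene was tested with edgeR among all 9264 genes. Of the 35 genes, 33 rose in db/db at an adjusted p under 0.05, which is 94.3%, against 15.8% of all tested genes that rose. None fell, against 11.9% of all tested genes. The other two, Ryr1 and Ttn, did not pass. The count filter asks for a minimum level in 4 libraries. Of the 35 genes 13 reached it in every db/db library but not in every WT library. These were 4 fast genes, 6 slow genes and 3 genes of both fibre types. Among members with at least 10 counts in every library 20 of 22 rose, against 950 of 7333 among all tested genes. Over the 35 genes the median log2 fold change was 2.63, against 0.00664 over all tested genes, of which 11.1% had a log2 fold change above 1. Every db/db library lay above every WT library in 25 of the 35 genes, against 15.3% of all tested genes. The 35 genes held 0.0727%, 0.141%, 0.105% and 0.250% of the counts of WT replicates 1 to 4 and 1.94%, 0.490%, 0.781% and 0.336% of those of db/db replicates 1 to 4. Between the genotypes the closest of these shares were that of WT replicate 4 (95% Wilson interval 0.243 to 0.256%) and that of db/db replicate 4 (0.329 to 0.342%). In bulk tissue, fewer or more muscle fibres and less or more RNA per fibre cannot be told apart. Without db/db replicate 1, 29 genes rose.

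**Figure D1:**
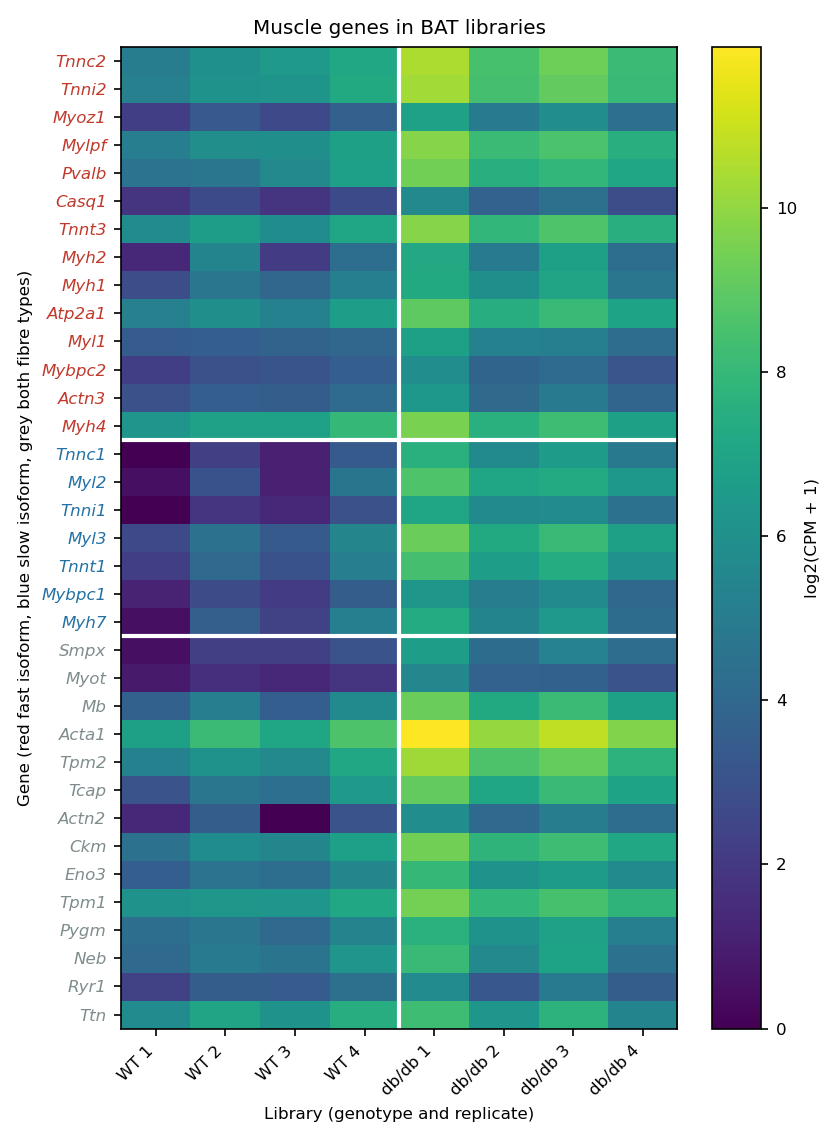
Level of each of the 35 muscle genes (rows, as log2(CPM + 1), colour scale) in the 8 libraries (columns, WT left and db/db right of the white line). Rows are grouped into fast isoforms, slow isoforms and genes of both fibre types. db/db replicate 1 is the brightest column in all 35 rows of its genotype, and WT replicate 1 is the darkest WT column in 32 rows.

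The fast isoforms rose in 14 of 14 genes, by a median log2 fold change of 2.30, and 9 of them did not overlap between the genotypes. Without db/db replicate 1 the median was 1.69. Tnnc2, fast troponin C (chr2:164777161-164779967, minus strand), rose the most of the fast genes. It was at 32.0, 63.3, 86.0 and 143 CPM in WT replicates 1 to 4 and at 1419.6, 356, 629.9 and 286 CPM in db/db replicates 1 to 4 (log2 fold change 3.05, SE 0.45, adjusted p = 7.36e-05). Every db/db library was above every WT library, by 1.99-fold at the nearest values. Its partner Tnni2, fast troponin I, which blocks the myosin sites on actin at rest, was at 35.6, 68.4, 71.4 and 152 CPM in WT and 1275, 341, 534 and 276 CPM in db/db (log2 fold change 2.89, SE 0.44, adjusted p = 8.73e-05). Tnnt3, fast troponin T, which ties the troponin complex to tropomyosin, was at 54.2, 103, 56.0 and 129 CPM in WT and 888, 241, 406 and 178 CPM in db/db (log2 fold change 2.33, SE 0.40, adjusted p = 0.000261). None of the 3 fast troponins overlapped between the genotypes, and db/db replicate 4 was nearest to WT in each.

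Among the myosin subunits, Mylpf, the fast regulatory light chain that sits on the myosin neck, was at 34.0, 59.9, 60.9 and 111 CPM in WT and 870.3, 286, 384 and 187 CPM in db/db (log2 fold change 2.70, SE 0.39, adjusted p = 6.15e-05). Myl1, the fast essential light chain, was at 10.1, 10.97, 12.8 and 14.4 CPM in WT and 110.4, 36.6, 35.02 and 18.6 CPM in db/db (log2 fold change 2.07, SE 0.41, adjusted p = 0.000941). Its 4 WT values lay closer together than those of any other member, within 1.43-fold. Both light chains were higher in every db/db library than in any WT library.

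The 3 fast myosin heavy chains, the motor proteins themselves, overlapped between the genotypes. They lie side by side on chromosome 11, plus strand, in the order Myh2 (chr11:67171027-67197517), Myh1 (chr11:67200052-67224575) and Myh4 (chr11:67238029-67260446). Myh4, the IIb form, rose the least of the fast genes, at 75.3, 115, 114 and 246 CPM in WT and 758, 195, 305 and 109 CPM in db/db (log2 fold change 1.32, SE 0.44, adjusted p = 0.0314). WT replicate 4 was above db/db replicates 2 and 4, and the call was lost without any one of WT replicates 1, 2 and 3 or db/db replicate 1 (log2 fold change 0.55 and adjusted p = 0.212 without the last), and in DESeq2 (adjusted p = 0.140). With the replicate number as a block the Myh4 change was 1.08 with an adjusted p of 0.119. Myh1, the IIx form, was at 6.07, 24.9, 14.3 and 34.4 CPM in WT and 151, 61.7, 125 and 24.6 CPM in db/db (log2 fold change 2.20, SE 0.46, adjusted p = 0.00163), and only db/db replicate 4 reached down into the WT range. Myh2, the IIa form, was the least even of the fast genes, at 1.62, 40.9, 3.38 and 18.7 CPM in WT and 149.8, 30.5, 110.4 and 19.0 CPM in db/db (log2 fold change 2.28, SE 0.66, adjusted p = 0.0153). WT replicate 2 stood at the top of the WT values for Myh2 and above db/db replicates 2 and 4, whereas WT replicate 4 was highest for Myh1 and Myh4. The Myh2 call was lost in DESeq2 (adjusted p = 0.106), with the replicate block (adjusted p = 0.0622) and without WT replicate 3 (adjusted p = 0.0512). Without WT replicate 2 the Myh2 log2 fold change was higher, 3.30 (adjusted p = 0.00277). Because the heavy chain genes are near-identical over long stretches, reads may have been split among them, and their values are uncertain to that extent.

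The other 6 fast genes serve calcium handling and the lattice of the sarcomere. Pvalb, parvalbumin, a calcium buffer that speeds relaxation of fast fibres, was at 22.7, 24.5, 49.2 and 105 CPM in WT and 674, 183, 237 and 134 CPM in db/db (log2 fold change 2.61, SE 0.48, adjusted p = 0.000495). The genotypes did not overlap for Pvalb. Atp2a1, the fast calcium pump of the sarcoplasmic reticulum, rose by a log2 fold change of 2.18, Casq1, the fast calcium store protein, by 2.46 and Myoz1, a Z-disc protein, by 2.88, each without overlap. Actn3, the fast alpha-actinin of the Z-disc, rose by 1.64 and Mybpc2, the fast myosin binding protein C, by 1.76, and both overlapped. Without db/db replicate 1 these last calls were lost, with a log2 fold change of 0.78 for Actn3 (adjusted p = 0.0793) and 0.81 for Mybpc2 (adjusted p = 0.118). Mybpc2 also missed the threshold without WT replicate 1 (adjusted p = 0.0507) and in DESeq2 (adjusted p = 0.0504).

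The slow isoforms rose in 7 of 7 genes, by a median log2 fold change of 3.89, and 6 of them did not overlap. The median was 3.19 without db/db replicate 1 and 4.56 without WT replicate 4. Their WT counts were low, so that counting error is large there. Of the 7, 6 reached the level of the count filter in every db/db library but not in every WT library, so that their entry into the test depended on db/db, and their count and median are a description. With at least 10 counts required in every library, Myl3 was the 1 slow gene left, with a log2 fold change of 3.95 (adjusted p = 1.87e-05). Tnnc1, slow troponin C (chr14:31208312-31211729, plus strand), had 0, 9, 3 and 22 counts in WT replicates 1 to 4 and 647, 159, 218 and 74 counts in db/db replicates 1 to 4. In CPM this was 0, 3.80, 1.13 and 9.34 against 195, 50.6, 96.6 and 27.5 (log2 fold change 4.72, SE 0.64, adjusted p = 3.19e-05), the largest change of the 35 genes. The means were 3.57 ± 4.16 CPM in WT and 92.3 ± 74.0 CPM in db/db (mean ± SD, n = 4). Tnni1, slow troponin I, had 0, 6, 4 and 16 counts in WT and 438, 160, 120 and 59 counts in db/db (log2 fold change 4.59, SE 0.58, adjusted p = 1.69e-05). Both genes were at 0 counts in WT replicate 1, and their highest WT value, in WT replicate 4, was below the lowest db/db value. Tnnt1, slow troponin T, was better covered and was at 3.64, 16.0, 7.14 and 33.1 CPM in WT and 343, 104, 169.8 and 65.8 CPM in db/db (log2 fold change 3.53, SE 0.51, adjusted p = 6.35e-05).

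Myl2, the slow regulatory light chain, was at 0.405, 7.17, 1.13 and 23.8 CPM in WT, where replicates 1 and 3 rested on 1 and 3 counts, and at 401, 129, 159.6 and 81.1 CPM in db/db (log2 fold change 4.60, SE 0.62, adjusted p = 3.15e-05). Myl3, the slow essential light chain, was at 5.26, 21.9, 9.39 and 42.0 CPM in WT and 614, 151, 277 and 110.5 CPM in db/db (log2 fold change 3.89, SE 0.53, adjusted p = 3.62e-05). Neither light chain overlapped between the genotypes. Myh7, the slow heavy chain (chr14:54970684-54994626, minus strand), showed the smallest change of the slow genes, with 1, 27, 11 and 82 counts in WT and 538, 130, 200 and 48 counts in db/db, or 0.405, 11.4, 4.13 and 34.8 CPM against 162, 41.4, 88.7 and 17.9 CPM (log2 fold change 2.63, SE 0.66, adjusted p = 0.00635). WT replicate 4 was above db/db replicate 4 for Myh7, the only slow gene that overlapped, and in DESeq2 Myh7 had an adjusted p of 0.0761. Mybpc1, the slow myosin binding protein C, rose by a log2 fold change of 3.09 without overlap.

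The genes used by both fibre types rose in 12 of 14 genes, by a median log2 fold change of 2.63, and 10 did not overlap. Acta1, skeletal alpha-actin, the thin filament itself (chr8:123891769-123894751, minus strand), had the highest counts of the 35 genes. It was at 109.7, 283, 135 and 395 CPM in WT and 3977, 1063, 1788 and 813 CPM in db/db (log2 fold change 3.05, SE 0.45, adjusted p = 6.79e-05). The means were 231 ± 134 CPM in WT and 1910.1 ± 1439 CPM in db/db (mean ± SD, n = 4). The lowest db/db library was 2.06-fold above the highest WT library. Actins are near-identical to each other, and reads from a related actin may be counted here. Ckm, muscle creatine kinase, which refills ATP at the filaments, was at 21.9, 54.9, 43.2 and 107 CPM in WT and 675, 215, 301 and 139.9 CPM in db/db (log2 fold change 2.56, SE 0.43, adjusted p = 0.000246), without overlap. Smpx, a small muscle protein, changed the most of this class, at 0.405, 3.80, 3.76 and 7.22 CPM in WT and 100.2, 17.8, 38.1 and 18.6 CPM in db/db (log2 fold change 3.53, SE 0.58, adjusted p = 0.000189). It rested on 1 to 17 counts in WT.

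The other members of this class differed by a log2 fold change of 3.49 for Myot (myotilin of the Z-disc), 3.46 for Mb (myoglobin, the oxygen store), 3.03 for Tpm2 and 2.07 for Tpm1 (tropomyosins), and 2.99 for Tcap, which caps titin at the Z-disc. The alpha-actinin Actn2 changed by 2.70 and the glycolytic genes Eno3 and Pygm by 2.28 and 2.06. All of these passed the test, and of them Pygm overlapped between the genotypes. The 3 very large proteins stood lowest. Neb, nebulin, which runs along the thin filament, was at 15.8, 29.96, 23.3 and 74.3 CPM in WT and 267, 47.7, 119.7 and 20.8 CPM in db/db (log2 fold change 1.68, SE 0.56, adjusted p = 0.0325). WT replicate 4 was above db/db replicates 2 and 4 for Neb. The Neb call was lost without any one of WT replicates 1, 2 and 3 or db/db replicates 1 and 3 (adjusted p 0.0618 to 0.217), in DESeq2 (adjusted p = 0.138) and with the replicate block (log2 fold change 1.36, adjusted p = 0.139). Ryr1, the calcium release channel, had a log2 fold change of 1.16 with an adjusted p of 0.0900, and passed without WT replicate 4, db/db replicate 2 or db/db replicate 4 (adjusted p 0.0291 to 0.0415). Ttn, titin, the elastic spring from Z-disc to M-line, was at 53.4, 124, 67.3 and 176 CPM in WT and 298, 77.0, 211 and 41.7 CPM in db/db (log2 fold change 0.58, SE 0.45, adjusted p = 0.363). The means were 105 ± 56.3 CPM in WT and 157 ± 119 CPM in db/db (mean ± SD, n = 4). For Ttn, db/db replicate 4 was the lowest of all 8 libraries and db/db replicate 1 the highest.

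**Figure D2:**
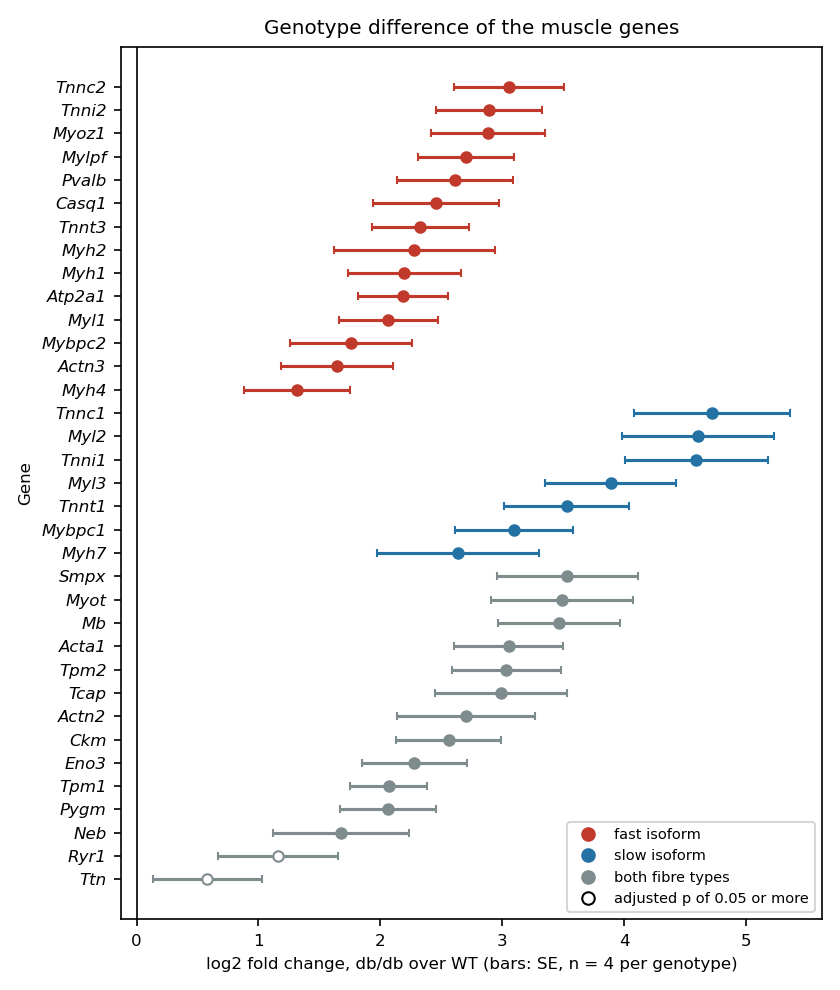
log2 fold change of db/db over WT for each of the 35 genes (horizontal axis, bars are SE, n = 4 libraries per genotype), sorted within the 3 classes by colour. The 7 slow isoforms run from 2.63 to 4.72, the 14 fast isoforms from 1.32 to 3.05, and the open circles are Ryr1 and Ttn, which did not pass the test.

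To compare fast with slow isoforms inside each library, where a scaling factor cancels, the ratio of the CPM of a fast gene to that of its slow partner was taken with a prior count of 2 added to each gene. The size of such a ratio depends on the genes compared, and only its differences between libraries are read here. Of 9 pairs tested, 7 were fast over slow, and in all 7 every db/db ratio was below every WT ratio (two-sided exact permutation p = 0.0286 each, the smallest that 4 against 4 can give, adjusted p = 0.0367 over the 9 pairs). A pair was tested only where both genes passed the count filter. Of the 7 slow genes 6 reached its level in every db/db library but not in every WT library. Entry of those 6 pairs depended on db/db, so their p-values are a description. Myl1 over Myl3 is the pair without this limit. The pairs best covered on the slow side were those with Tnnt1 and Myl3, which had at least 9 and 13 counts in every library. Tnnt3 over Tnnt1 had ratios of 12.5, 6.15, 7.19 and 3.83 in WT replicates 1 to 4 and 2.59, 2.30, 2.38 and 2.68 in db/db replicates 1 to 4. Its log2 ratio fell by 1.45 in db/db. Myl1 over Myl3 had ratios of 1.81, 0.517, 1.33 and 0.355 in WT and 0.181, 0.246, 0.129 and 0.174 in db/db, where its log2 ratio fell by 2.20.

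Mylpf over Myl2 differed the most, with ratios of 30.03, 7.66, 32.8 and 4.57 in WT and 2.17, 2.21, 2.399 and 2.30 in db/db, a fall of 2.59 on the log2 scale. The 4 db/db ratios of this pair lay within 1.11-fold of each other, although Mylpf itself spanned 4.65-fold over the same libraries. Myh4 over Myh7 had ratios of 65.7, 9.55, 23.5 and 6.94 in WT and 4.67, 4.64, 3.41 and 5.90 in db/db and fell by 1.97. Here WT replicate 4 was close to db/db replicate 4. The log2 ratio fell by 1.61 for Tnni2 over Tnni1, by 1.73 for Tnnc2 over Tnnc1 and by 1.62 for Mybpc2 over Mybpc1. WT ratios with Tnni1, Tnnc1, Myh7, Myl2 or Mybpc1 below the line rest in part on 3 counts or fewer, mostly in WT replicate 1, and there the prior count sets the ratio in part. With a prior count of 0.5 the same 7 pairs did not overlap.

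Both pairs among the fast heavy chains overlapped between the genotypes. Myh4 over Myh2 had ratios of 32.1, 2.78, 27.7 and 12.7 in WT and 5.04, 6.25, 2.75 and 5.56 in db/db (log2 difference -1.51, exact permutation p = 0.114, adjusted p = 0.129). Myh1 over Myh2 had ratios of 2.88, 0.615, 3.64 and 1.81 in WT and 1.01, 1.996, 1.14 and 1.28 in db/db (log2 difference -0.50, exact permutation p = 0.486). WT replicate 2 had the lowest WT ratio in both pairs, which is the library with the high Myh2 value.

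**Figure D3:**
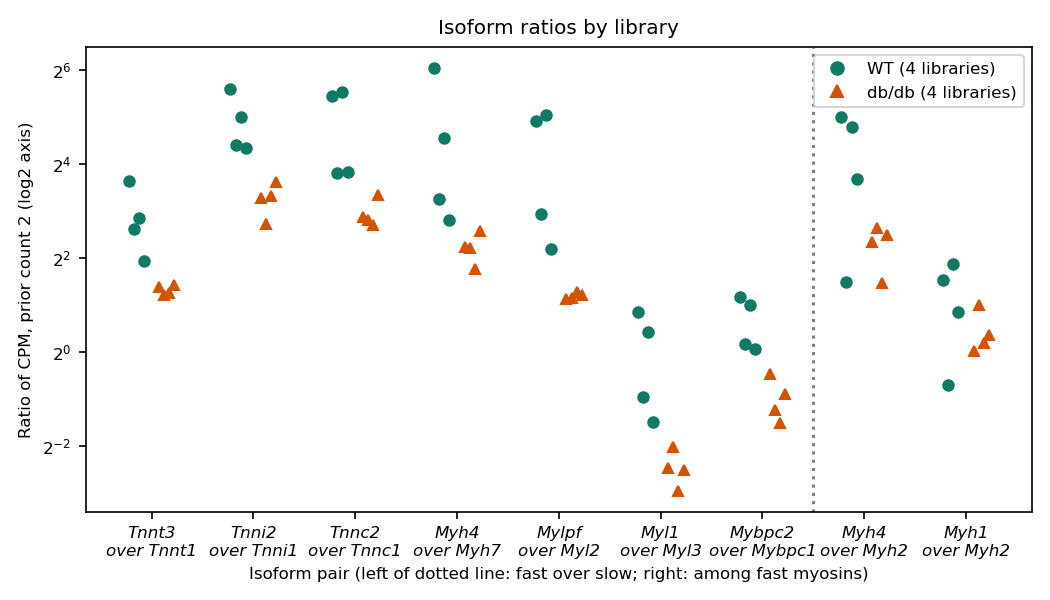
Ratio of the CPM of paired genes within a library (vertical axis, log2 scale, prior count 2) for 9 pairs, with 4 WT libraries as circles and 4 db/db libraries as triangles, replicates 1 to 4 from left to right. The db/db ratios lie below the WT ratios in the 7 fast over slow pairs and overlap them in the 2 myosin pairs on the right.

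Averaged per library, the geometric mean of the 14 fast genes was 14.1, 29.3, 22.3 and 45.2 CPM in WT replicates 1 to 4 and 286, 79.3, 128 and 51.1 CPM in db/db replicates 1 to 4. That of the 7 slow genes was 1.69, 8.66, 3.87 and 19.6 CPM in WT and 225, 69.5, 109 and 38.1 CPM in db/db. The quotient of the fast and slow means was 8.35, 3.39, 5.77 and 2.31 in WT and 1.27, 1.14, 1.18 and 1.34 in db/db. The slow mean of WT replicate 1 rests on 27 counts over the 7 genes, so the prior count of 2 sets much of its quotient, which was 15.1 with a prior count of 0.5 (the remaining WT libraries had 3.57, 6.71 and 2.34). Summed counts of the fast genes over those of the slow genes, which use no prior count, gave 29.7, 8.79, 19.1 and 6.86 in WT and 3.69, 3.53, 3.53 and 4.12 in db/db. By each of these 3 measures the genotypes did not overlap, and among WT libraries the quotient was lowest in replicate 4 and highest in replicate 1. The size of the quotient in WT replicate 1 is not settled. Of the 7 slow genes 6 reached the level of the count filter in every db/db library but not in every WT library. The genes in the quotient thus depended on db/db, and the lack of overlap is a description. In db/db the quotient of the means stayed within 1.18-fold while the level of all 35 genes spanned 5.51-fold. WT replicate 4 and db/db replicate 4 were nearest in their fast level, 45.2 and 51.1 CPM, and their slow levels were 19.6 and 38.1 CPM. The genotypes did not overlap in either level.

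**Figure D4:**
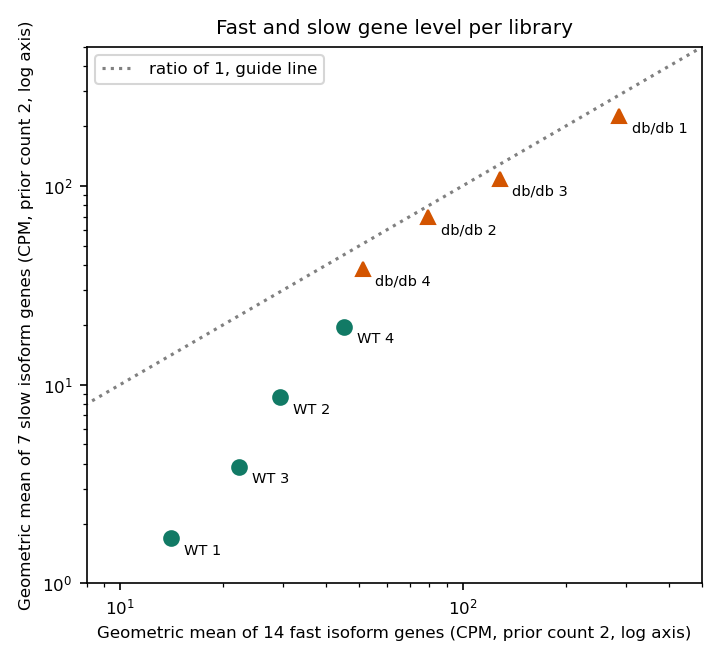
Geometric mean of the 14 fast genes (horizontal axis, CPM with a prior count of 2, log scale) against that of the 7 slow genes (vertical axis, CPM with a prior count of 2, log scale), each point a library (circles WT, triangles db/db), with a dotted guide line at a ratio of 1. The db/db points run parallel to the line at a quotient of 1.14 to 1.34, and the WT points fall away from it, from 2.31 in WT replicate 4 to 8.35 in WT replicate 1, a value set in part by the prior count.

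To describe how far the 35 genes follow a single factor of each library, the genotype mean was taken off every gene's log2 CPM and the deviations that were left were compared. Of the variance of these deviations, 87.5% lay on the first principal component, against 6.03% on the next component, and 20.3% over all 9264 tested genes. Within WT alone it held 87.3% and within db/db alone 95.7%. The geometric mean of the 35 genes was 8.85, 22.9, 14.2 and 39.3 CPM in WT and 278, 76.8, 128 and 50.4 CPM in db/db, a 4.44-fold range in WT and a 5.51-fold range in db/db. db/db replicate 1 was the highest of its genotype in all 35 genes and replicate 4 the lowest in 32, and 30 genes kept the order 1, 3, 2, 4. WT replicate 4 was the highest of its genotype in 33 genes, the exceptions being Myh2 and Actn2, and WT replicate 1 was the lowest in 32. These numbers rank libraries of different animals, and replicates of a genotype have no order of their own.

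Each gene's deviations were then set against the mean deviation of the other 34 genes over the 8 libraries, as a description. The median r was 0.950, and 29 of the 35 genes were above 0.9. Actn2 had the lowest r, 0.671. It was at 1.62, 10.6, 0 and 7.22 CPM in WT, with 0 counts in replicate 3 and its highest WT value in replicate 2, and at 58.1, 16.2, 31.0 and 18.2 CPM in db/db (log2 fold change 2.70, SE 0.57, adjusted p = 0.00163). Without WT replicate 2 the log2 fold change of Actn2 was 3.42 (adjusted p = 0.00100). Its r was 0.626 within WT and 0.948 within db/db. In db/db alone r was at least 0.914 in each of the 35 genes. The slope on the shared level differed by class in WT, with a median of 0.709 for fast and 1.49 for slow genes, and all 7 slow genes were above 1. In db/db the medians were 0.988 and 0.954. The points share libraries and depth, and slow genes in WT had the fewest counts.

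Outside the 35 genes, 6664 tested genes had a mean of at least 10 CPM, and 38 of them (0.57%) followed the muscle level with an r above 0.9. The 10 closest were Trdn, Snx4, Cox6a2, Apobec2, Nexn, Ap3m1, Akap9, Cryab, Slc25a12 and Xirp2, with r from 0.990 to 0.955 over 8 libraries. Trdn (triadin) partners the calcium release channel and Cox6a2 is the muscle form of a cytochrome oxidase subunit. The 10 genes were not alike between the genotypes. Cryab, a small heat shock protein, had a log2 fold change of 4.73 (SE 0.22, adjusted p = 1.32e-10) and Cox6a2 one of 3.52 (SE 0.47, adjusted p = 3.01e-05). Akap9 fell by 0.51 on the log2 scale (SE 0.16, adjusted p = 0.0242), and Ap3m1 had a log2 fold change of 0.42 (SE 0.20, adjusted p = 0.140).

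Other genes of muscle were read from a list that holds no member. Of 33 genes 21 passed the count filter, and 19 of these rose, against 15.8% of all tested genes. None fell, against 11.9% of all tested genes, and Txlnb and Fbp2 did not pass the test. Of the 21, 14 reached the filter's level in every db/db library but not in every WT library, so that their entry into the test depended on db/db and the count is a description. With at least 10 counts in every library 5 of 6 rose, against 950 of 7333 among all tested genes. Deviations of the 21 genes from their genotype means had 76.2% of the variance on a single component. Lmod2, which nucleates actin filaments, had the largest change among them (mean 2.29 CPM in WT and 45.5 CPM in db/db, log2 fold change 4.32, SE 0.51, adjusted p = 8.35e-06). Slow partner genes outside the 35 passed in 5 of 6 cases, 4 of which reached the filter's level in every db/db library but not in every WT library. Myoz2, the slow calsarcin, changed by 4.58 (SE 0.57), Csrp3 by 4.13 (SE 0.61), Ankrd2 by 3.58 (SE 0.50), Casq2 by 3.03 (SE 0.53) and Tpm3, the slow tropomyosin gene, by 2.51 (SE 0.34) on the log2 scale. Atp2a2, the slow calcium pump, which many other cells also use, had a log2 fold change of 0.32 with an adjusted p of 0.241.

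Regulators of muscle formation and embryonic muscle genes were near 0. Of 12 listed genes, 10 had at most 3 counts in every library, and Myod1, Mymk and Musk had 0 counts in all 8. The embryonic and newborn myosins Myh3 and Myh8 had at most 1 count in any library. Only Mef2c, which other cell types also use, passed the filter, and it rose by 0.90 on the log2 scale (SE 0.27, adjusted p = 0.0177). Cardiac genes were equally sparse. None of 10 passed the filter, 7 had at most 3 counts in every library, Nppa and Nppb had 0 counts in all 8, and the highest count was 29, for Myl4. Cardiac Myh6, Tnni3, Tnnt2 and Mybpc3 had at most 3 counts each in every library. Whether the muscle transcripts came in part from heart was not tested.

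Markers of other cells of the depot were read from lists as well, against 15.8% of all tested genes higher and 11.9% lower in db/db. Of 10 smooth muscle genes 6 passed the filter, 4 of them without reaching its level in every WT library, and 3 rose, Acta2, Des and Synpo2, of which Des is also a gene of skeletal muscle, while Tagln and Cnn1 had at most 10 counts in any library. Their summed level was 66.5 to 84.2 CPM in WT and 201 to 565 CPM in db/db. The stromal genes Pdgfra, Dcn and Col1a1 and the macrophage genes Adgre1, Cd68 and Csf1r rose, whereas the endothelial genes Pecam1 (log2 fold change -0.31, adjusted p = 0.202) and Cdh5 (-0.39, adjusted p = 0.194) did not pass. The sum of these 8 genes was 514 to 642 CPM in WT and 849 to 1675 CPM in db/db, most of it from Dcn and Col1a1. Brown adipocyte genes fell in 6 of 7 tested, with sums of 9142 to 10371 CPM in WT and 4033 to 6398 CPM in db/db. Among the 5 genes of adipocytes in general, Plin1 (log2 fold change 0.79) and Fabp4 (0.65) rose, Cfd fell by 2.66 on the log2 scale (adjusted p = 2.59e-06), and Adipoq (0.32, adjusted p = 0.112) and Lipe (0.04, adjusted p = 0.868) did not pass. Of 4 genes of nerve sheath 2 rose (sums 121 to 197 CPM in WT and 340 to 536 CPM in db/db), and of 5 red blood cell genes 1 rose, a share near that of all tested genes (sums 3233 to 8515 CPM in WT and 6128 to 16038 CPM in db/db). The part of these cells in the muscle results was not tested, nor was where in the dissected tissue the muscle transcripts came from.

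With the mean log2 CPM of the other muscle genes as a covariate, 4 of the 35 genes were higher in db/db and 4 were lower, against 4.6% and 1.42% of all tested genes. Those higher were all slow isoforms, Tnni1 (log2 fold change 2.28), Myl2 (2.22), Tnnc1 (1.90) and Myl3 (1.29). Those lower were Myh4 (-1.31) and the giant genes Ttn (-2.19), Neb (-1.85) and Ryr1 (-1.51). Of those higher, only Myl3 had at least 10 counts in every library. The entry of Tnni1, Myl2 and Tnnc1 into the test depended on db/db, so the count of those higher is a description. Of the 21 genes in the covariate, 14 reached the filter's level in every db/db library but not in every WT library. Class medians were 0.04 for fast, 1.29 for slow and 0.46 for genes of both fibre types. As a geometric mean the covariate was 4.21 to 10.8 CPM in WT libraries and 12.4 to 63.0 CPM in db/db libraries, so it did not overlap between the genotypes and takes up much of the genotype difference itself.

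Gene length went along with the size of the change. This relation was looked for after the values were seen. Over the 35 genes the summed exon length in GENCODE M21 (log2 bases) and the log2 fold change had a Pearson r of -0.614 and a Spearman rho of -0.532, across genes, which are not independent replicates. Over all tested genes with a length r was -0.0659 and rho -0.0416. The 8 genes with more than 6000 exon bases had a median log2 fold change of 1.87 and the other 27 one of 2.89. Ttn (116825 bases), Neb (26582 bases) and Ryr1 (21838 bases) were the 3 longest and stood among the 5 lowest changes. Among the slow genes, Myh7 (8616 bases) was both the longest and the least changed. The part of length or of RNA quality in the changes was not tested.

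**Figure D5:**
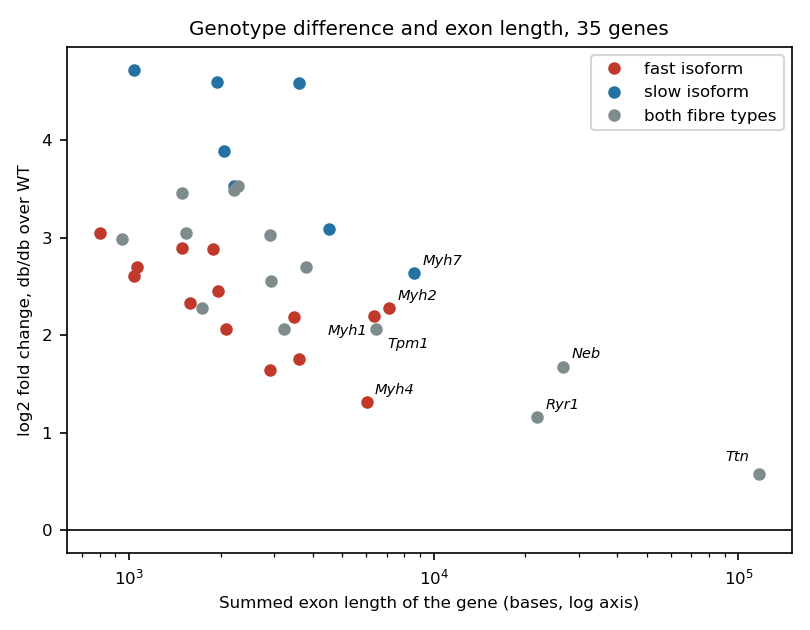
log2 fold change of db/db over WT (vertical axis) against the summed exon length of the gene in bases (horizontal axis, log scale) for the 35 genes, coloured by class and named above 6000 bases. The changes run from 4.72 for Tnnc1 at 1041 bases to 0.58 for Ttn at 116825 bases.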

How the data were processed

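BAT RNA from 4 WT and 4 db/db mice was sequenced as single-end mRNA libraries by a commercial service, and the authors deposited raw counts per Ensembl gene as well as normalized log2 values, which were not used here. The study's methods name bbduk, STAR (mm10) and HTSeq-count, whereas the submitters' processing notes name Trimmomatic, HISAT2 and DESeq2. Use of molecular identifiers or strand is not given in the sources used here, so PCR copies may be among the counts, and intervals and floors cover counting error only.

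Symbols were taken from GENCODE M21 (31011 of 31053 genes matched). Genotype and replicate number came from the sample titles, and no column was left unmapped. Genes were filtered with filterByExpr (minimum count 10, minimum total 15), scaled by TMM and tested with the quasi-likelihood test of edgeR 4.0.16 in R 4.3.3, genotype only, with Benjamini-Hochberg adjustment over the 9264 genes that passed and a threshold of 0.05. The p-values measure the spread between these 8 libraries, each described as a separate animal. DESeq2 1.42.0 was an alternative, along with other scalings, filters and priors, a replicate block, a muscle covariate and leaving out each library. log2 CPM used a prior count of 2. Ratios were compared by two-sided exact permutation over libraries.

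On counts drawn with 200 genes changed at a log2 fold change of 2, of which 197 passed the filter, edgeR recovered 193, with 11 false calls among 9077 genes. Replicate libraries differed beyond sampling noise (chi-square per degree of freedom at least 4.34). Same-numbered WT and db/db libraries did not deviate together (r from -0.0781 to 0.0491), so no pairing was used. Members, lists and fibre classes were chosen with earlier results of these data known. Per-library values are given for Acta1, Ckm, the myosin heavy chains, the paired troponins and light chains, Pvalb, the largest and smallest change of each class and the gene with the lowest r, and the other members by their log2 fold change. Outside the members, the 10 genes most like their mean deviation are named (mean of at least 10 CPM). The per-library values of Neb and the values of Lmod2 were chosen after they were seen. Promoters came from RefSeq (GRCm38.p6), and 25 of 34 windows were checked to run into the start of a GENCODE transcript, 0 in reverse. Plots were drawn with matplotlib 3.10.9.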

Additional observations from a re-analysis of the deposited data

Results flagged for a closer look

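Dixon's test at its 95% critical value set 1 library apart in 3 of 94 sets of 4 libraries, and chance would give about 4.7. For Tpm1, WT replicate 4 stood at 140 CPM, while the remaining WT libraries had 69.2 to 78.9 CPM. For Myot, db/db replicate 1 stood at 46 CPM, while the remaining db/db libraries had 7.44 to 12.7 CPM. In db/db replicate 1 the mitochondrially encoded genes took 30.7% of the counts, while they took 36.8 to 37.6% in the remaining db/db libraries. WT replicate 4 and db/db replicate 1 also held the highest muscle level of their genotypes.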

How the results depend on the processing

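Of the 35 muscle genes, 33 rose, and the count was 33 with DESeq2 size factors, with library totals and with TMM factors computed without muscle genes, 28 in DESeq2, 30 with the replicate block and 29 to 34 when a library was left out (29 without db/db replicate 1). The TMM factors without muscle genes and the alternative settings for the marker lists were added after seeing the data. Of the rising genes, 28 did so in all 8 fits that left out a library. Among 280 such gene comparisons 13 were weaker and 3 stronger. Without db/db replicate 1 the fold of 26 of the 33 rising genes was lower by more than 1.5 times, 6 of them slow. Without WT replicate 4 it was higher by more than 1.5 times in 9 genes, 6 of them slow (Myl2 6.06, Tnnc1 5.80 and Myh7 3.87 on the log2 scale), and without WT replicate 2 in 2 genes, Myh2 (3.30) and Actn2 (3.42). At least 10 counts in every library gave 20 of 22, a filter that removes genes low in WT. No count filter gave 35. There the log2 fold changes moved by at most 0.06 but the adjusted p-values fell throughout (Mylpf from 6.15e-05 to 2.64e-55), so the passes of Ttn (0.00760) and Ryr1 (0.000148) in that fit are no added evidence. Other muscle genes rose in 19 of 21 tested, 16 of 21 in DESeq2, 29 of 33 without a filter, 5 of 6 with at least 10 counts in every library and 18 of 21 with the replicate block. With a library left out, 21 to 26 were tested and 14 to 23 rose. The marker lists held 21 calls, 14 higher and 7 lower, with 25 calls under the block and 15 to 25 with a library left out.

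With the muscle covariate 4 members were higher and 4 lower, 1 other muscle gene was higher (the covariate is made from these genes), and 10 marker genes were called, 9 higher and 1 lower. These members changed sign: Myh1 -0.22, Myh2 -0.81, Myh4 -1.31, Actn3 -0.91, Mybpc2 -0.93, Myl1 -0.0149, Casq1 -0.18, Myh7 -0.64, Pygm -0.17, Eno3 -0.0057, Ryr1 -1.51, Ttn -2.19 and Neb -1.85. The covariate did not overlap between genotypes. Beyond the values above, the cause was not tested.

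The genotypes did not overlap in 7 pair ratios, and the same 7 did not overlap with any library left out, joined by Myh4 over Myh2 without WT replicate 2 (7 to 8 pairs). The share of variance on the first component was 87.5%, 83.7% with a prior count of 0.5, 87.4% with library totals and 85.8% to 91.0% with a library left out. With the block, which pairs only numbers, Myh2, Myh4 and Neb lost their calls. The fast over slow quotient of WT replicate 1, 8.35, was 15.1 with a prior count of 0.5, an alternative added after seeing the data. Low WT counts of the slow genes limit the size of their folds.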
